A study of Bos taurus with 2 samples.

Results

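The genes described here encode the subunits of the mitochondrial respiratory chain and of the ATP synthase, measured in muzzle tissue of a dark-muzzled and a light-muzzle HanWoo cow. Members were chosen by name: every bovine gene symbol that starts with NDUFA, NDUFB, NDUFC, NDUFS, NDUFV, UQCR, COX4, COX5, COX6, COX7, COX8 or ATP5, together with SDHA, SDHB, SDHC, SDHD, CYC1 and CYCS, while the NDUFAF assembly factors were left out. The arrays carried 170 probes for 81 such genes, out of 8508 named genes (17538 probes) that could be measured in both cows. By complex, the members comprised 36 genes of complex I, 4 of complex II, 8 of complex III, cytochrome c, 14 genes of complex IV and 18 of the ATP synthase. The reference list of bovine genes held 90 symbols that fit the rule. Of those without a matched probe, COX4I2, COX5A, COX6C, COX7B2, COX7C, COX8C, NDUFS8, UQCRC2 and the pseudogene COX7ALP1 were not analysed here, and neither were the subunits that the mitochondrial genome encodes.

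Both cows were females of 30 months of the Korean native breed HanWoo, and they differed in the label for nose colour, which was Yellow for the light-muzzled cow and Black for the dark-muzzled cow. Total RNA of the front of the muzzle was labelled with a single dye and hybridised to 1 Agilent bovine array per cow, both on the same slide. With 1 array per group there was no replicate, no test was made and no spread between animals can be given, so every difference below is one between 2 animals. A muzzle sample holds several tissues, and in such a bulk sample fewer cells of a type cannot be told apart from less RNA per cell.

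The respiratory chain passes electrons from NADH and succinate through complexes I to IV to oxygen and pumps protons across the inner mitochondrial membrane, and the ATP synthase lets the protons flow back to make ATP. Most subunits are encoded in the nucleus and occur in nearly every cell, and tissues rich in mitochondria, such as heart, skeletal muscle and brown fat, hold the most of them. A few subunits of complex IV exist as alternative forms made from separate genes, with 1 form found in most tissues and the other mainly in heart and skeletal muscle.

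A level is given as the log2 of the background-corrected signal minus the log2 of the 75th percentile of that array, so a log2 level of 0 lies at this percentile. The log2 ratio sets the dark-muzzled against the light-muzzled cow (dark minus light), averaged over the probes of a gene, and a log2 ratio of 1 is 2-fold. All 170 member probes were well above background on both arrays and none was saturated. Their log2 levels ran from -3.31 to 5.76 in the light-muzzled cow, with a median of 3.43, and from -3.37 to 6.73 in the dark-muzzled cow, with a median of 4.47. The error of the log2 ratio of a single member probe had a median of 0.204. It was combined here from the error that the scanner software assigned to the signal on each array. Between probes of the same gene, the SD of the log2 ratio had a median of 0.11 over the 51 members with several probes (highest 0.75, for COX7B), against a median of 0.17 over all 5363 such genes. Neither figure covers the spread between animals. The 8 spike-in control RNAs above background on both arrays had a median log2 ratio of -0.22 (range -0.38 to 0.0063). All 10 keratinocyte markers on the array had a probe well above background in both cows. The keratin gene KRT5 had a log2 level of 6.32 in the light-muzzled and 5.80 in the dark-muzzled cow.

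Most subunit genes were higher in the dark-muzzled cow. At least 2-fold higher levels were found there for 45 of 81 members (55.6%), compared with 9.12% of all measured genes. A single member, NDUFA4L2, was at least 2-fold lower, compared with 6.1% of all measured genes. By any amount, 75 members were higher and 6 were lower, whereas 54.5% of all genes were higher. The median log2 ratio of the members was 1.08 (2.11-fold) with quartiles of 0.84 and 1.28, and the median over all genes was 0.05 with quartiles of -0.29 and 0.43. The members lay close together, since 64 of 81 had a log2 ratio between 0.5 and 1.5. The 2-fold limit cut through this range, with 7 members between 0.9 and 1.0 and 6 between 1.0 and 1.1. Members that were only just above it were ATP5F1A (1.04), ATP5F1C (1.07) and ATP5PF (1.07), and those only just below it were NDUFC1 (0.995), SDHC (0.94) and NDUFB4 (0.93). Probe by probe, 92 of 170 were at least 2-fold higher, compared with 9.59% of all named probes, and 157 were higher by any amount.

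**Figure D1:**
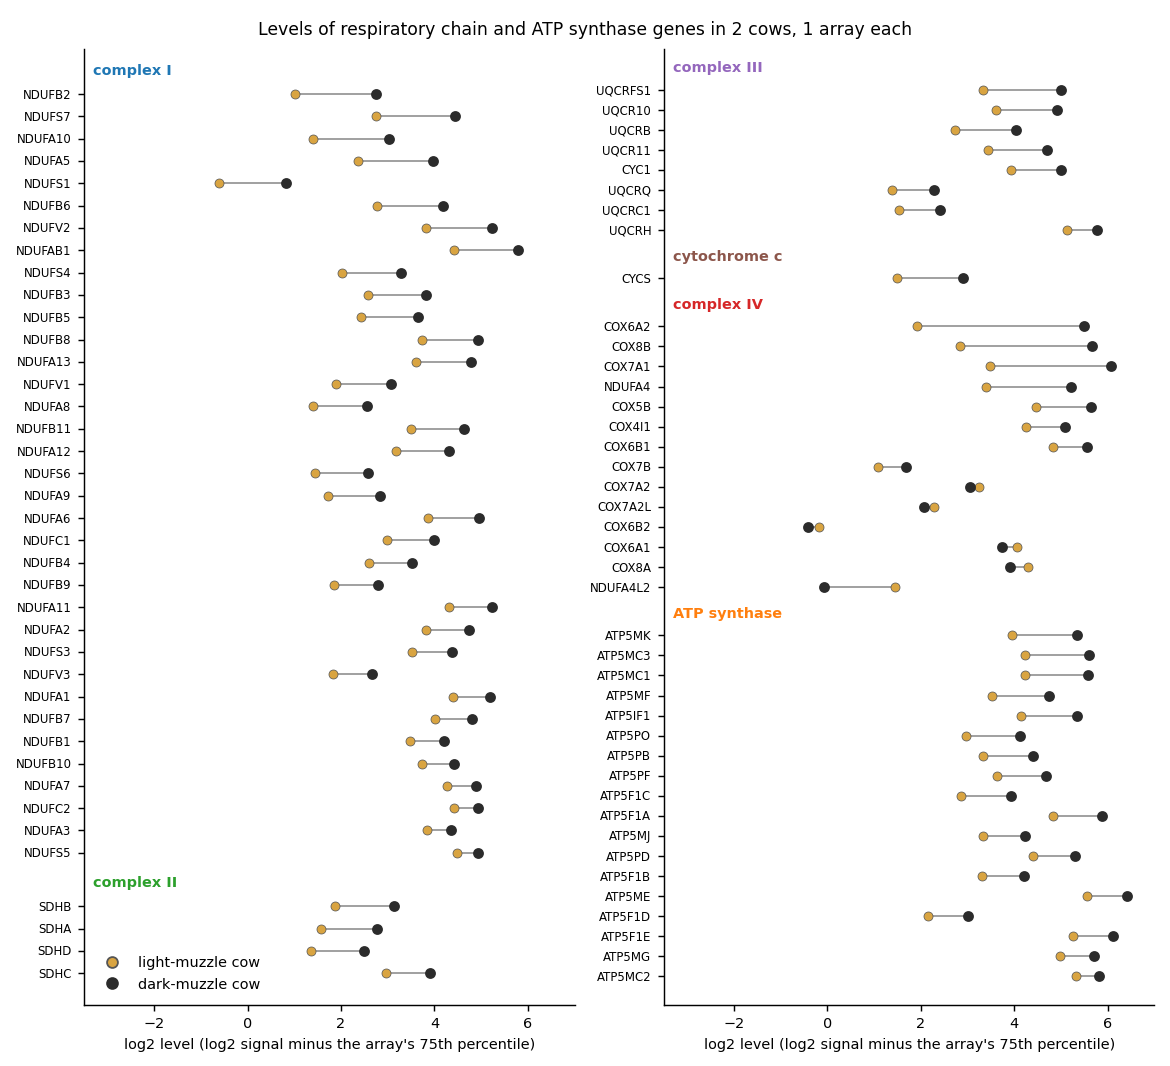
Log2 level (horizontal axis, log2 signal minus the 75th percentile of the array) of each member gene shown in the light-muzzled cow (yellow points) and the dark-muzzled cow (black points), 1 array each, averaged over the probes of the gene and sorted within each complex by the difference. The black point lies to the right for every member shown outside complex IV, whereas 6 of the 14 genes of complex IV have it on the left.

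Complex I, which takes electrons from NADH and hands them to ubiquinone, was higher in the dark-muzzled cow for all 36 of its measured subunits. Of these, 21 were at least 2-fold higher, and the median log2 ratio was 1.13 with a range of 0.46 to 1.74. Its core subunits, which carry the flavin, the iron-sulphur centres and the ubiquinone site, had a median log2 ratio of 1.35 over 6 genes. The 30 accessory subunits, which surround the core, had a median of 1.102. NDUFB2, an accessory subunit of the membrane arm, had the highest log2 ratio of the complex, with a log2 level of 1.004 in the light-muzzled cow and 2.74 in the dark-muzzled cow (log2 ratio 1.74, 1 probe). The core subunit NDUFS7, which carries the last iron-sulphur centre before ubiquinone, had log2 levels of 2.74 and 4.45, and its 3 probes gave log2 ratios of 1.60 to 1.88. Core and accessory subunits were thus both found among the highest. NDUFA10, an accessory subunit, had levels of 1.41 and 3.02 in the light-muzzled and dark-muzzled cow, and NDUFA5, another, had levels of 2.36 and 3.96. Their log2 ratios were 1.61 and 1.60.

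NDUFS1, the largest subunit of the complex and carrier of several iron-sulphur centres, was measured by 5 probes with log2 ratios between 1.36 and 1.61, although the levels of these probes in the light-muzzled cow ran from -3.31 to 1.88. All 5 probes were therefore at least 2-fold higher. NDUFV2, an iron-sulphur subunit at the NADH end, had a log2 level of 3.83 in the light-muzzled and 5.24 in the dark-muzzled cow (log2 ratio 1.41). NDUFV1, which binds NADH and the flavin, had log2 levels of 1.90 and 3.07 and a log2 ratio of 1.17. Its 2 probes lay on either side of the 2-fold limit, at 0.96 and 1.38. NDUFS3 was the core subunit with the lowest log2 ratio, 0.84, from a log2 level of 3.52 to 4.37. The mitochondrial acyl carrier protein NDUFAB1, which also serves in fatty acid and lipoic acid synthesis, had log2 levels of 4.41 and 5.78 (log2 ratio 1.37).

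The other accessory subunits of complex I that were at least 2-fold higher were NDUFB6, NDUFS4, NDUFB3, NDUFB5, NDUFB8, NDUFA13, NDUFA8, NDUFB11, NDUFA12, NDUFS6, NDUFA9 and NDUFA6, with log2 ratios between 1.08 (NDUFA6) and 1.42 (NDUFB6). The lowest ratios of the complex belonged to NDUFS5 (log2 levels of 4.48 and 4.93, log2 ratio 0.46), NDUFA3 (log2 ratio 0.52) and NDUFC2 (log2 levels of 4.41 and 4.94, log2 ratio 0.52), all of them accessory subunits. NDUFA3 was the only gene of the complex with a probe below 0. Its brightest probe had log2 levels of 5.58 and 5.53 in the light-muzzled and dark-muzzled cow (log2 ratio -0.05), whereas the other probes had log2 ratios of 0.72 and 0.89.

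Complex II, or succinate dehydrogenase, is also an enzyme of the citrate cycle, and 3 of its 4 subunit genes were at least 2-fold higher in the dark-muzzled cow. SDHB, the iron-sulphur subunit, had log2 levels of 1.88 in the light-muzzled and 3.13 in the dark-muzzled cow (log2 ratio 1.25, 1 probe). SDHA, the flavoprotein that oxidises succinate, had a mean log2 ratio of 1.19, with 4 probes at 0.95, 1.15, 1.21 and 1.46. The membrane anchor subunits had log2 ratios of 1.13 (SDHD, from a level of 1.36 to 2.49) and 0.94 (SDHC, from 2.96 to 3.90). The range over the 4 genes, 0.94 to 1.25, was smaller than the range over the probes of SDHA alone.

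Complex III passes electrons from ubiquinol to cytochrome c. Its 8 measured genes were all higher in the dark-muzzled cow, 5 of them at least 2-fold, with a median log2 ratio of 1.17. UQCRFS1, the Rieske iron-sulphur protein, was the highest, and its 3 probes gave log2 levels of 2.65, 3.72 and 3.64 in the light-muzzled cow and 4.35, 5.39 and 5.27 in the dark-muzzled cow. The log2 ratios of these probes, 1.70, 1.67 and 1.63, were almost the same. CYC1, the haem subunit that gives electrons to cytochrome c, had levels of 3.92 and 4.995 and a log2 ratio of 1.08, with all 3 probes between 1.03 and 1.14. The small subunits UQCR10, UQCRB and UQCR11 had log2 ratios of 1.30, 1.30 and 1.27. Below 2-fold lay UQCRQ (0.90), the core protein UQCRC1 (0.89, 4 probes between 0.63 and 1.08) and UQCRH, the hinge protein, which was the lowest of the complex with log2 levels of 5.13 and 5.77 (log2 ratio 0.63). Cytochrome c itself, encoded by CYCS, carries electrons from complex III to complex IV. Its 2 probes had log2 levels of 1.59 and 1.40 in the light-muzzled cow and of 2.92 and 2.88 in the dark-muzzled cow, which gave a log2 ratio of 1.40.

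**Figure D2:**
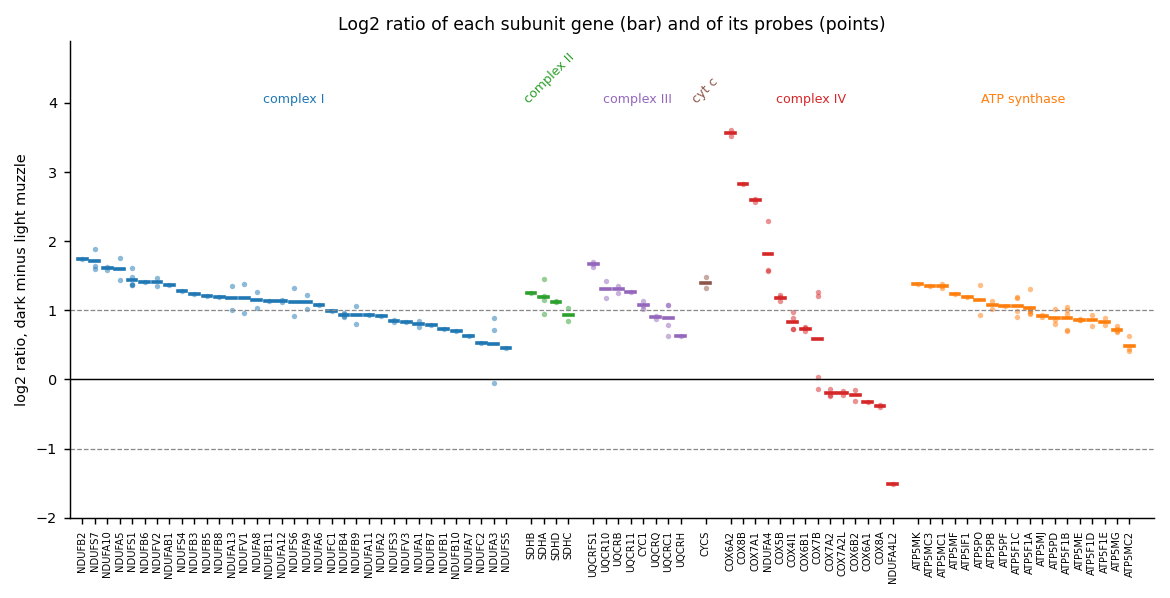
Log2 ratio (vertical axis, dark minus light muzzle) of the member genes shown (bars, mean of its probes) and of its probes (points), grouped and coloured by complex, with dashed lines at 2-fold in either direction. Complexes I, II, III and the ATP synthase form narrow bands above 0 (medians 1.13, 1.16, 1.17 and 1.05), while complex IV runs from -1.51 to 3.57.

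Complex IV, the cytochrome c oxidase, stood apart by its spread. The SD of the log2 ratio between its 14 genes was 1.45, compared with 0.30 between the 67 members outside it. Its median log2 ratio was 0.66, with 5 genes at least 2-fold higher, 1 at least 2-fold lower, 8 above 0 and 6 below it. These included all 6 of the subunit genes that were lower in the dark-muzzled cow. The highest and the lowest members of the whole set were also both found here.

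For some subunits, the muscle form was much higher in the dark-muzzled cow and the form found in most tissues was slightly lower. The heart and muscle form of subunit 6A, COX6A2, was the highest of all 81 members and ranked 29 among 8508 genes. Its 2 probes had log2 levels of 1.93 and 1.92 in the light-muzzled cow and of 5.46 and 5.53 in the dark-muzzled cow, a log2 ratio of 3.57 (11.9-fold). The form found in most tissues, COX6A1, had log2 levels of 4.06 and 3.73 in the same order, a log2 ratio of -0.32. The log2 ratios of the pair therefore differed by 3.89, or 14.8-fold.

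COX8B, the form of subunit 8 known from heart, skeletal muscle and brown fat, had log2 levels of 2.83 in the light-muzzled and 5.66 in the dark-muzzled cow (log2 ratio 2.83, 1 probe). For COX8A, the general form, both probes were lower in the dark-muzzled cow, with log2 levels of 4.34 and 4.26 against 3.97 and 3.86. Its log2 ratio was -0.38, which was 3.21 below that of COX8B. For subunit 7A, the 2 probes of the muscle form COX7A1 had log2 levels of 3.55 and 3.42 in the light-muzzled cow and of 6.16 and 5.99 in the dark-muzzled cow. This is a log2 ratio of 2.59 (6.02-fold). The 3 probes of the general form COX7A2 were all slightly lower, with log2 ratios between -0.24 and -0.14, and the pair differed by 2.79. COX7A2L, a relative of subunit 7A that joins complexes III and IV into supercomplexes, had a log2 ratio of -0.20, and its 2 probes had log2 ratios of -0.23 and -0.17. No probe of any of these 3 muscle forms overlapped a probe of its general form in log2 ratio. The differences of COX6A1, COX7A2, COX7A2L and COX8A between the cows were small, 1.15-fold to 1.30-fold. By comparison, the spike-in control RNAs had a median log2 ratio of -0.22.

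**Figure D3:**
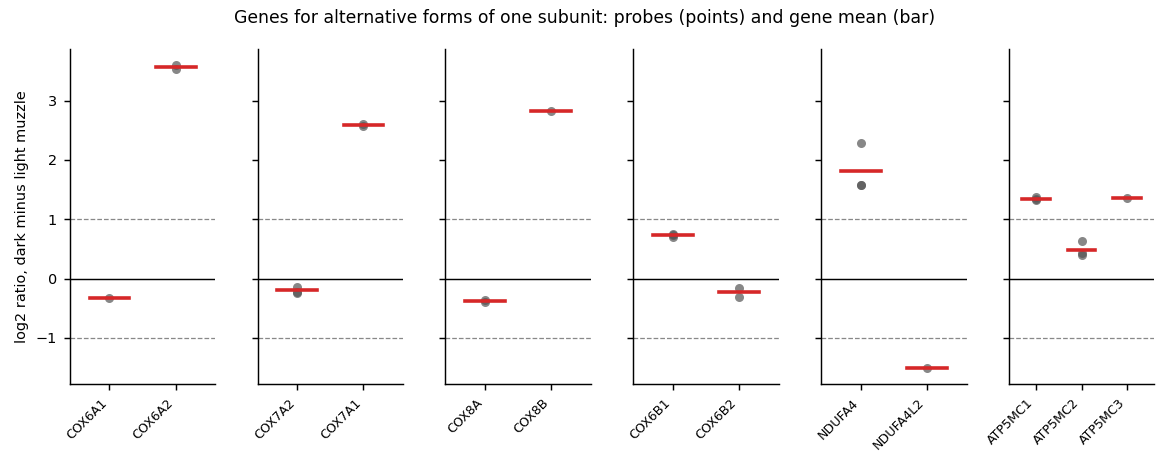
Log2 ratio (vertical axis, dark minus light muzzle) of genes for alternative forms of one subunit, with probes as points and gene means as bars, and dashed lines at 2-fold. COX6A2, COX7A1 and COX8B lie between 2.59 and 3.57, and the general forms COX6A1, COX7A2 and COX8A lie between -0.38 and -0.20.

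Other general forms in complex IV were higher. COX4I1, the general form of subunit 4, whose counterpart was not analysed here, was higher in the dark-muzzled cow, with log2 levels of 4.25 and 5.08 and 4 probes with log2 ratios between 0.72 and 0.97. COX6B1, the general form of subunit 6B, had log2 levels of 4.83 and 5.56 (log2 ratio 0.73). Its counterpart COX6B2, known from testis, was slightly lower, with a log2 ratio of -0.23. It had 1 probe at log2 levels of 2.84 and 2.53 and a dim one at -3.22 and -3.37. COX5B, which has a single form, was 2.27-fold higher, and its 3 probes agreed closely with log2 ratios of 1.13 to 1.22.

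NDUFA4 was first assigned to complex I and is now counted as a subunit of complex IV. It had the highest log2 ratio after the 3 muscle forms, 1.82. Of its 3 probes, the bright pair had log2 levels of 4.98 and 4.98 in the light-muzzled cow and of 6.55 and 6.56 in the dark-muzzled cow, whereas the dim one had levels of 0.22 and 2.52. The log2 ratios were 1.57 and 1.58 for the bright pair and 2.29 for the dim probe. NDUFA4L2, a relative of NDUFA4 that is known to be induced when oxygen is low, was the lowest of all members. Its single probe had a log2 level of 1.44 in the light-muzzled cow and of -0.08 in the dark-muzzled cow (log2 ratio -1.51, or 2.85-fold lower), so that NDUFA4 and NDUFA4L2 differed in log2 ratio by 3.33.

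COX7B was the only member whose probes differed by more than 2-fold. A bright pair of its 4 probes had log2 levels of 4.07 and 4.20 in the light-muzzled cow and of 5.34 and 5.41 in the dark-muzzled cow, with log2 ratios of 1.27 and 1.20. A dim pair had levels of -1.58 and -2.36 against -1.54 and -2.50, with log2 ratios of 0.04 and -0.14. The mean log2 ratio of the gene, 0.59, was not close to that of any of its probes and is uncertain.

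The ATP synthase was higher in the dark-muzzled cow for all 18 of its measured genes. At least 2-fold higher levels were found for 10 of them, and the median log2 ratio was 1.05 with a range of 0.49 to 1.39. The catalytic head F1, in which ATP is made, had a median of 0.88 over 5 genes and the narrowest range of the groups within the enzyme, 0.84 to 1.07. ATP5F1A, the alpha subunit, was measured by 6 probes with log2 ratios between 0.95 and 1.31 and mean log2 levels of 4.83 in the light-muzzled and 5.87 in the dark-muzzled cow. ATP5F1B, the beta subunit that holds the catalytic sites, had 5 probes between 0.70 and 1.05, mean log2 levels of 3.32 and 4.20, and a log2 ratio of 0.88. Thus alpha lay just above the 2-fold limit and beta just below it, and their probes overlapped. The gamma subunit ATP5F1C, the rotating shaft, had a log2 ratio of 1.07, while the delta subunit ATP5F1D and the epsilon subunit ATP5F1E had log2 ratios of 0.86 and 0.84.

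The peripheral stalk, which holds the head still against the rotor, had log2 ratios of 1.14 (ATP5PO), 1.08 (ATP5PB), 1.07 (ATP5PF) and 0.89 (ATP5PD). The membrane subunits spread most widely. ATP5MK, a small subunit that helps to hold ATP synthase dimers together, was the highest gene of the enzyme, with log2 levels of 3.96 in the light-muzzled and 5.34 in the dark-muzzled cow (log2 ratio 1.39, 1 probe). ATP5MF had a log2 ratio of 1.23, and ATP5MJ, ATP5ME and ATP5MG had log2 ratios of 0.92, 0.87 and 0.72.

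The c ring of the rotor is built from copies of a single protein that ATP5MC1, ATP5MC2 and ATP5MC3 all encode, differing in the targeting sequence that is cut off on import. ATP5MC1 had log2 levels of 4.23 and 5.58 in the light-muzzled and dark-muzzled cow (log2 ratio 1.35, 3 probes between 1.32 and 1.38). ATP5MC3 had levels of 4.23 and 5.59, a log2 ratio of 1.36. ATP5MC2 was the lowest gene of the enzyme, with levels of 5.33 and 5.82 and 3 probes between 0.41 and 0.63, a log2 ratio of 0.49. The 3 genes for the same protein therefore did not differ between the cows by the same amount, and ATP5MC1 and ATP5MC3 exceeded ATP5MC2 by 0.86 and 0.87 in log2 ratio. ATP5IF1, the inhibitor that stops the enzyme from breaking down ATP, had log2 levels of 4.14 and 5.34. Its log2 ratio of 1.19 fell within the range of the subunits that it acts on.

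Different probes of a member mostly gave the same direction. Among the 51 members with 2 or more probes, every probe was above 0 for 45, every probe was below 0 for 4 (COX6B2, COX7A2, COX7A2L and COX8A), and only COX7B and NDUFA3 had probes on both sides. All probes were at least 2-fold higher for 22 of these members, and for 12 the probes lay on both sides of the 2-fold limit. Within a gene, the dimmer probe tended to show the higher log2 ratio. Of 26 members with probes at least 1 log2 level apart, the dimmest probe had a higher log2 ratio than the brightest in 23, with a median difference of 0.22. This also held over all 4304 such genes on the arrays, where the dimmest probe was higher in 71.9%, with a median difference of 0.17. The exceptions among the members were COX7B, NDUFS1 and SDHD. Probe sequences were not used here, so whether a probe also binds a near-identical copy of its gene was not tested.

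**Figure D4:**
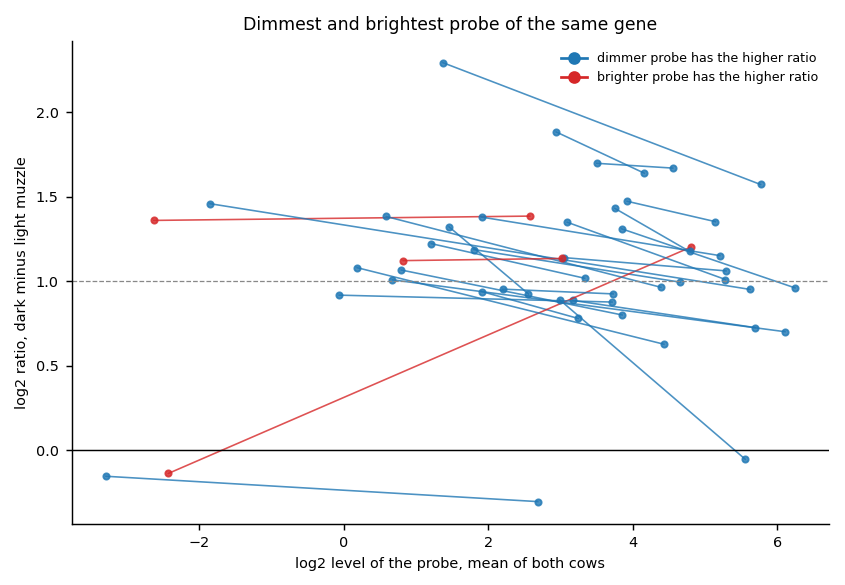
Log2 ratio (vertical axis, dark minus light muzzle) against log2 level (horizontal axis, mean of both cows) for the dimmest and the brightest probe of each of the 26 members with probes at least 1 log2 level apart, with a line joining the probes of a gene. Lines in blue, for 23 genes, fall to the right, and lines in red, for COX7B, NDUFS1 and SDHD, rise to the right.

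Other mitochondrial genes were compared by the same measure, without a test. Assembly factors, which build the complexes but do not stay in them, had a median log2 ratio of 0.41 over 33 genes. Of these, 3 (9.09%) were at least 2-fold higher, a share like the 9.12% of all genes, and 0 were lower, from 1.26 for DMAC2L to -0.32 for SDHAF1. Mitochondrial ribosomal proteins, which are needed to make the subunits that the mitochondrial genome encodes, had a median of 0.45 over 72 genes. At least 2-fold higher levels were found for 6 of them (8.33%, below the share of all genes) and lower levels for 0, from MRPL1 (1.30) to MRPL2 (-0.93). Genes of protein import, chaperones and membrane structure had a median of 0.46 over 21 genes, with 3 higher (14.3%) and 0 lower, between VDAC3 (1.79), an outer membrane channel, and the import receptor TOMM22 (-0.15). These 3 groups therefore had medians between 0.41 and 0.46 in the pair of cows in which the subunits had 1.08.

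The citrate cycle, which supplies the chain with NADH and succinate, was listed together with pyruvate dehydrogenase, which feeds it. This list had a median log2 ratio of 1.20 over 16 genes. It had 11 genes (68.8%) at least 2-fold higher and 0 lower, compared with 9.12% and 6.1% of all genes. Among the higher ones were PDHA1 (1.15), PDHB (1.18) and PDHX (1.24) of pyruvate dehydrogenase. The list ran from SUCLA2 (1.66), of succinyl-CoA ligase, to DLST (-0.13). Citrate synthase, CS, was at 0.25, and its 3 probes ran from -0.06 to 0.63. A list of inner membrane carriers, uncoupling proteins and creatine kinases had a median of 1.27 over 12 genes, with 7 higher (58.3%) and 0 lower. The 7 include CKM, which is also a muscle marker, the uncoupling proteins UCP2 (1.95) and UCP3 (3.24), and the aspartate and glutamate carrier SLC25A12 (1.16). Both uncoupling proteins were dim in the light-muzzled cow, with log2 levels of -4.51 (UCP2) and -4.42 (UCP3). The 2 probes of UCP2 had log2 ratios of 1.33 and 2.57, and those of UCP3 had 2.94 and 3.54. The creatine kinase CKB was also among the 7 (1.38), although its 6 probes ran from -0.38 to 2.84. CKMT2, the mitochondrial creatine kinase of muscle, had log2 levels of 0.84 in the light-muzzled and 4.58 in the dark-muzzled cow (log2 ratio 3.74), whereas CKMT1A, the form of other tissues, had a log2 ratio of -0.53. Among the carriers that exchange ATP for ADP, SLC25A4, the form of heart and muscle, had a log2 ratio of 1.69. SLC25A5 and SLC25A6 had log2 ratios of -0.03 and 0.32, but the 4 probes of SLC25A6 ran from -0.49 to 1.21. By gene mean, these carriers and the CKMT2 and CKMT1A pair had the order of the alternative forms in complex IV. Regulators of mitochondrial biogenesis had a median of 0.28 over 13 genes, with 1 higher (7.69%, below the share of all genes) and 0 lower. They lay between PERM1 (3.03), a muscle regulator, and the coactivator PPARGC1A (-0.83). The transcription factor of the mitochondrial genome, TFAM, was at 0.04. Glycolysis, which makes ATP outside the mitochondria, had a median of 1.05 over 17 genes, with 9 higher (52.9%) and 0 lower. It ran from ENO3 (3.31), the muscle enolase, to HK1 (-0.69).

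**Figure D5:**
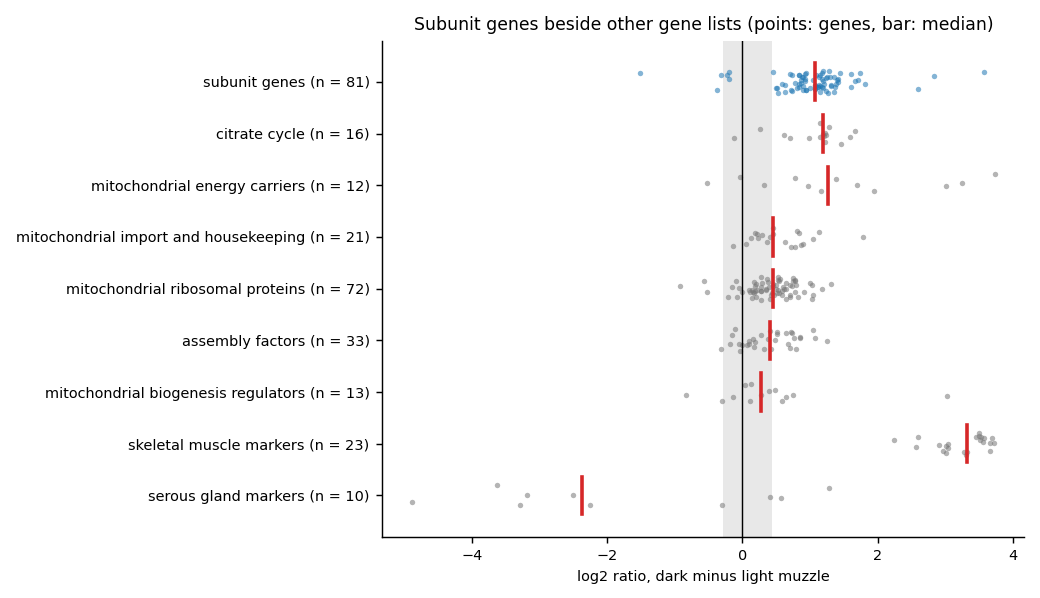
Log2 ratio (horizontal axis, dark minus light muzzle) of the 81 subunit genes (blue) and of the genes of other lists (grey), with red bars at the median of each list and a grey band between the quartiles of all 8508 genes (-0.29 to 0.43). The subunits (median 1.08) and the citrate cycle list with pyruvate dehydrogenase (1.20) lie to the right of the band, the ribosomal proteins and assembly factors near its right edge, and skeletal muscle markers farthest to the right (3.32).

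Markers of cell types also differed between the samples. All 23 measured skeletal muscle markers were at least 2-fold higher in the dark-muzzled cow, compared with 9.12% of all genes. Their median log2 ratio was 3.32, with a range from 2.24 (ACTA1) to 3.72 (MYOZ1). These 23 were all the listed muscle markers on the array, so none was dropped for lying near background. Their summed level, in multiples of the 75th percentile of the array, was 855 in the light-muzzled and 5672 in the dark-muzzled cow (6.64 times). Summed levels, here and for the lists below, add every probe of the listed genes on the array. They thus include dim probes and genes that were left out of the ratios and medians. Slow fibre markers had a median log2 ratio of 3.25 over 8 genes, all at least 2-fold higher, from CASQ2 (2.69) to TNNC1 (3.56), with summed levels of 126 and 1173. Fast fibre markers had a median of 3.32 over 11 genes, with 10 at least 2-fold higher and PVALB lower (-1.15), the highest being MYOZ1, and summed levels of 304 and 2447. Both fibre lists share genes with the muscle list. The ratios of COX6A2, COX8B and COX7A1 lay inside the range of the muscle markers, and those of the other 78 members lay below it. The part of muscle tissue in the differences of the subunit genes was not tested.

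Markers of serous glands went the other way, with a median log2 ratio of -2.38 over 10 genes and summed levels of 369.6 in the light-muzzled and 40.4 in the dark-muzzled cow. Of these, 6 were at least 2-fold lower and 1 was higher, compared with 6.1% and 9.12% of all genes. They ran from BPIFA1 (1.29) to PIP (-4.89). BPIFA1 rested on 1 dim probe, with log2 levels of -5.17 in the light-muzzled and -3.89 in the dark-muzzled cow. STATH was well above background only in the light-muzzled cow and ODAM in neither. Melanocyte markers had a median of 0.86 over 7 genes, with 3 higher (42.9%) and 0 lower. They ran from PMEL (1.70) to DCT (-0.52), with summed levels of 3.61 and 6.65. TYRP1 and EDNRB passed the background limit in the dark-muzzled cow alone. So did another probe of DCT, left out of its ratio, with log2 levels of -8.10 in the light-muzzled and -5.24 in the dark-muzzled cow. Endothelium markers were all above 0, with a median of 0.90 over 7 genes, 3 of them (42.9%) at least 2-fold higher. They ran from KDR (0.26) to CLDN5 (1.33), with summed levels of 27.0 and 54.9. Adipocyte markers had a median of 0.97 over 6 genes, with 3 higher and 1 lower, from CD36 (3.29), which muscle also expresses, to CIDEC (-1.48), and summed levels of 211 and 304. LEP passed the background limit in the dark-muzzled cow alone, and UCP1, the uncoupling protein of brown fat, in neither cow.

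Keratinocyte markers had a median of 0.43 over 10 genes, with 4 higher (40.0%) and 0 lower. They ran from TGM1 (1.76) to COL17A1 (-0.81), with summed levels of 1074 and 1399.9. Fibroblast markers had a median of -0.37 over 9 genes, with 1 higher (11.1%, near the 9.12% of all genes) and 0 lower. They ran from FBN1 (1.09) to THY1 (-0.85), with summed levels of 784 and 617. Leukocyte markers had a median of -0.17 over 8 genes, with 0 past 2-fold, from CD3E (0.29) to CD79A (-0.39), and summed levels of 13.4 and 11.5. Another probe of CD79A, left out of its ratio, passed the background limit in the dark-muzzled cow alone. Its log2 levels were -6.19 in the light-muzzled and -4.35 in the dark-muzzled cow. A left-out probe of CD3D passed the limit in the light-muzzled cow alone, with log2 levels of -5.07 and -5.98 in the same order. The part of these cell types in the differences of the subunit genes was not tested.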

How the data were processed

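Total RNA of the muzzle of 1 light-muzzled and 1 dark-muzzled cow was hybridised to 1-colour Agilent bovine arrays. Scanner output deposited for each array came from Agilent Feature Extraction 10.7.3.1, per the submitters' processing notes, and its processed signal is a background-subtracted intensity. A second deposited file holds log2 values, which equalled the log2 processed signal minus a constant per array (column medians -2.47 light and -2.45 dark), and served as an alternative.

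Levels were the log2 processed signals minus the log2 of the 75th percentile over noncontrol spots, an intensity of 1144 in the light-muzzled and 1137 in the dark-muzzled cow. Well above background were 34519 and 35855 of 43803 noncontrol spots. On each array 13 noncontrol spots were flagged as outliers. A spot flagged on either array was dropped from both before replicate spots of the same probe were averaged. Accessions of the probes were matched to RefSeq genes of the ARS-UCD2.0 assembly, which named 20587 of 43639 probes. The arrays were designed on another assembly, so no coordinates are given. The ratio of a gene is the mean over its probes well above background on both arrays. STATH, ODAM and other genes without such a probe got no ratio. Lists are described by counts past 2-fold and medians over the genes with a ratio. Cell types are also described by levels summed over all probes of the listed genes.

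The members and the lists were chosen with earlier results of these data known, and the list of mitochondrial ribosomal proteins and the use of the dimmest probe were added after values had been seen. Named are all members at least 2-fold different (1 of them counts in the totals but is not reported here by itself), the 5 most extreme in each direction, the extremes of each complex, genes for alternative forms, members whose probes disagree by 2-fold, the subunits of complex II, CYC1, CYCS, UQCRFS1, ATP5F1A, ATP5F1B and ATP5IF1, and the extremes of each list. NDUFA3, NDUFC2, CS, PDHA1, PDHB, PDHX, UCP2, UCP3, CKB, SLC25A12, TFAM, SLC25A4, SLC25A5, SLC25A6, KRT5 and the remaining members named were chosen after their values were seen.

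Alternatives were quantile and cyclic loess normalization, unshifted values, a 50th percentile in place of the 75th, normexp background correction (offset 50, on the median pixel signal), no filter on dim probes, outlier spots kept, the deposited log2 table, the brightest, dimmest or median probe of a gene, thresholds of 1.5-fold and 3-fold, and probes in place of genes. The normalizations used limma 3.58.1 (R 4.3.3), and the other steps used pandas 2.3.3 and numpy 2.4.6 in Python 3.11.15. The ratio and counting steps were run on simulated data built from the light-muzzled array, and the changed genes were recovered. The planted changes lay well past the 2-fold limit, so this run could not show how members near that limit are called. It did not cover the scaling between arrays. With 1 array per group no test was possible, and precision is limited by the number of arrays.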

Additional observations from a re-analysis of the deposited data

How the results depend on the processing

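Across 11 alternative settings the direction of every member held, except for NDUFA3 with the brightest probe and COX7B with the dimmest, and 75 members stayed above 0 (74 in those settings). Sizes moved more, since under quantile normalization 61 of 81 members changed by more than the median SD between probes (0.11), NDUFS5 to 0.17 and NDUFC2 to 0.24 among them. The number of members at least 2-fold higher lay between 33 under quantile normalization and 48 with the dimmest probe. The shares of all genes in these settings were 8.32% and 10.4%. NDUFA4L2 stayed the single lower member. At 1.5-fold 71 members were higher, and at 3-fold 9 were higher and 0 lower. The shares of all genes at these limits are not given here. By probes 92 of 170 were higher, compared with 9.59% of all named probes. Under quantile normalization the median log2 ratio fell to 0.91 for the members, 0.95 for complex I, 0.96 for complex III, 0.49 for complex IV and 0.84 for the ATP synthase, and was 3.1996 for fast fibre and -0.49 for fibroblast markers. With the brightest probe it was 1.01 for complex I, 1.04 for complex II, 0.12 for biogenesis regulators, 0.95 for energy carriers, 3.12 for muscle, 3.1001 for slow fibre, 3.08 for fast fibre, 0.55 for keratinocyte, -0.66 for fibroblast and 1.20 for adipocyte markers. With the dimmest probe, added after seeing the data, it was 0.30 for complex IV, 1.39 for energy carriers, 3.45 for muscle, 3.68 for fast fibre and -0.22 for fibroblast markers. Normexp correction gave 3.18 for muscle, 3.12 for slow fibre, 3.18 for fast fibre, 0.84 for adipocyte and 0.71 for endothelium markers. Without the filter on dim probes it was 1.16 for energy carriers, 1.34 for melanocyte, 1.02 for endothelium and, with a change of sign, 0.0736 for leukocyte markers, and the median over probes gave 1.41 for energy carriers. The cause of these shifts was not tested. The differences between the 3 muscle and general forms of complex IV stayed within 3.85 to 3.94 for subunit 6A, 2.70 to 2.86 for 7A and 3.2002 to 3.2747 for 8. Symbols were taken only from mapped accessions, so no second way of naming was run. No paired analysis was possible because each group holds 1 array.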
